A study of Mus musculus with 24 samples.

Results

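The ribosomal protein genes described here are 51 genes for proteins of the cytosolic ribosome, chosen by name from a list. An mm9 gene annotation held a protein-coding record for 50 of them, out of 22208 protein-coding symbols in all, and the longest record of each symbol was used. Rpl41 had no such record and is described apart. Of the 50, 30 encode proteins of the large subunit (Rpl and Rplp genes) and 20 encode proteins of the small subunit (Rps genes).

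The data came from immortalized mouse dermal fibroblasts, either LAP2alpha knockout (KO; Tmpo KO) or wild type (WT), in which chromatin was immunoprecipitated and sequenced (ChIP-seq) after 30 or 12 cycles of sonication. LAP2alpha, a nucleoplasmic binding partner of lamin A/C encoded by Tmpo, was precipitated from WT cells. Lamin A/C was precipitated from KO and WT cells with antibody N18, raised against the amino terminus, or 3A6, which recognizes the carboxy-terminal Ig fold, and lamin B1, a protein of the peripheral lamina, from WT cells. Each of the 12 combinations of antibody, genotype and sonication was 1 library, 4 from KO and 8 from WT cells, so every difference below is a difference between libraries with no replicate behind it and no test, and another 12 samples (inputs and histone marks) were not analysed here. The cells are immortalized cultures and not tissue, the number of animals behind them is not given in the sources used here, and the loss of LAP2alpha could not be checked from lists of regions. For lamin A/C and LAP2alpha, the 30-cycle and 12-cycle libraries ran on different flow cells, so sonication and run cannot be told apart, whereas at a given sonication the lamin A/C libraries of KO and WT cells ran in 1 lane. Libraries of the same genotype and sonication were compared with the same input. Reads within called islands numbered between 3989494 and 13601739 per library.

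Ribosomal proteins form the protein part of the ribosome, together with the ribosomal RNAs that RNA polymerase I makes in the nucleolus. Their genes are transcribed by RNA polymerase II, are highly expressed in growing cells, and lie scattered over the chromosomes with no common cluster. Many of their messages begin with a short run of pyrimidines, the terminal oligopyrimidine tract, through which mTOR signalling controls translation. Lamin B1 marks the gene-poor chromatin at the nuclear periphery (lamina-associated domains), while lamin A/C and LAP2alpha are also found in the nuclear interior.

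The genes were short and lay in gene-rich, G+C-rich surroundings. Their median length was 3.68 kb, against 15.5 kb for all protein-coding genes, and their range was 0.981 to 42.6 kb. The G+C content of the 100 kb around the transcription start had a median of 47.4% for the ribosomal protein genes and 44.2% for all genes. It ran between 41.8% at Rps20 and 54.5% at Rps15. A median of 22.5 other protein-coding genes lay within 500 kb of the start, against 15.0 for all genes, with 61 around Rpl13a and 2 around Rps23. Small nucleolar RNA genes, which guide the modification of ribosomal RNA, lay on the same strand within 18 of the 50 genes (36.0%), against 1.21% of all genes. Rpl4 held 5 of them and Rpl13a held 4. The genes were spread over 18 chromosomes, with 9 on chromosome 7 and 0 on chromosome X.

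RefSeq promoter sequences (GRCm38.p6) were found for 42 of the 51 genes, and each matched mm9 exactly at 1 place. A run of 8 or more pyrimidines (C or T) within 20 bases on either side of the start was present in 19 of the 42 (45.2%), against 15.9% of 27025 promoters. The starts below are shown because they contrast genes held in many domains (Rps21, Rpl38, Rpl18, Rpl28), genes with islands over the start (Rps18, Rps27) and genes found in no region of any library (Rps6, Rps9, Rps23). Each covers 10 bases before the start and 20 from it, on the gene's own strand, and capitals mark the longest pyrimidine run where it reached 8 bases. The printed starts are those of RefSeq and can differ from the gene-record starts used for islands and G+C content. The gene-record start is at position 52970827 of chromosome 7 for Rpl18 and 34092946 of chromosome 17 for Rps18. mm9 positions are chr2:179992074-179992103 for Rps21, chr11:114529884-114529913 for Rpl38, chr7:52973431-52973460 for Rpl18 and chr7:4744557-4744586 for Rpl28, all on the plus strand. They are chr17:34092591-34092620 for Rps18, chr3:90017551-90017580 for Rps27 and chr4:86503252-86503281 for Rps6, all on the minus strand, and chr7:3655633-3655662 for Rps9 and chr13:91062717-91062746 for Rps23, both on the plus strand.
Rps21: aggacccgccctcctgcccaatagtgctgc
Rpl38: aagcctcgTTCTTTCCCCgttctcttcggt
Rpl18: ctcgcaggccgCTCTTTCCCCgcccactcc
Rpl28: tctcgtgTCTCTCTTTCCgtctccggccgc
Rps18: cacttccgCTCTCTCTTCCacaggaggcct
Rps27: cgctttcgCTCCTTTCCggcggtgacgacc
Rps6: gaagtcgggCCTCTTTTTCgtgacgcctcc
Rps9: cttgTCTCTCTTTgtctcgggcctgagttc
Rps23: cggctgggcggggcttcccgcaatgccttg

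Runs of this kind need not lie within the message, and that of Rpl13 lies wholly before the start. Of the genes with both a promoter sequence and a gene record, a run of 8 or more was found in 13 of the 32 that lay inside a domain of some library and in 6 of the 9 that lay inside none. Within the 300-base promoters, searched on both strands, the core letters CCGGAAG, bound by GABP, were present in 16 of 42 (38.1%), against 9.12% of all promoters. GGGCGG, bound by SP1, was present in 23 (54.8%), against 35.9%. TATAAA, the TATA box, was present in 3 (7.14%), against 14.2%, and AAGATGGC, bound by YY1, in 2 (4.76%), against 2.88%. These are matches of letters alone. Longer stretches, 130 bases before the start and 20 from it, show a gene held by 7 libraries (Rplp0, chr5:116009346-116009495, plus strand), a gene with a long island in 3 libraries (Rpl13, chr8:125626120-125626269, plus strand) and a gene found in no region (Rpl35, chr2:38860632-38860781, minus strand). Here capitals mark a pyrimidine run of 8 or more at the start and any of these core letters. In Rpl35 the final SP1 match, read on the opposite strand, and the run overlap.
Rplp0: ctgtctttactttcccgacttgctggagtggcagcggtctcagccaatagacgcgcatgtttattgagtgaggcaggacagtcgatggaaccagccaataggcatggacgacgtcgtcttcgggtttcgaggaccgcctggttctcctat
Rpl13: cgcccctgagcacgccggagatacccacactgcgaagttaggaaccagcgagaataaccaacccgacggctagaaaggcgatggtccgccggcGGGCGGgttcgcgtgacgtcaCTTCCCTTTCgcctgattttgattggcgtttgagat
Rpl35: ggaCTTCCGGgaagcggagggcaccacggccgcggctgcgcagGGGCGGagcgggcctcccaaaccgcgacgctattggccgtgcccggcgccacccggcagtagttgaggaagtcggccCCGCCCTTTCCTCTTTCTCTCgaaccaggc

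To learn which ribosomal protein genes lay in chromatin bound by each protein, the share of each gene covered by EDD domains was computed. EDD (enriched domain detector) calls broad domains from 11-kb bins, and a gene was counted as inside with a coverage of 50% or more of its length. The threshold was of little consequence, since 598 of the 600 gene and library values were exactly 100% or 0%. The other 2 belonged to Rps28, which was covered to 81.4% by N18 domains in KO and in WT cells after 12 cycles. No gene had a coverage between 30% and 70%. In all, 37 of the 50 genes (74.0%) lay inside a domain of at least 1 library, against 67.1% of all genes.

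LAP2alpha domains held many of the genes at both sonications. After 30 cycles, 22 of the 50 (44.0%) were inside, against 32.3% of all genes, and after 12 cycles 27 (54.0%) were inside, against 35.9% of all genes. When all genes were weighted by the chromosomes that hold the ribosomal protein genes, the all-gene shares became 37.8% after 30 cycles and 39.8% after 12 cycles. The 16 genes held at both sonications (32.0%; 20.2% of all genes) were Rpl7, Rpl12, Rpl13a, Rpl14, Rpl18, Rpl22, Rpl28, Rpl38, Rplp0, Rplp2, Rps3, Rps7, Rps15, Rps16, Rps19 and Rps21. The 6 held after 30 cycles alone (12.1% of all genes) were Rpl11, Rpl15, Rpl19, Rplp1, Rps13 and Rps24. The 11 held after 12 cycles alone (15.7% of all genes) were Rpl3, Rpl6, Rpl8, Rpl10a, Rpl13, Rpl23, Rpl26, Rpl27, Rps2, Rps18 and Rps25. By subunit, LAP2alpha domains held 14 of 30 large-subunit and 8 of 20 small-subunit genes after 30 cycles, and 18 and 9 after 12 cycles.

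Lamin A/C gave different pictures by antibody, genotype and sonication. With N18 after 30 cycles, 24 genes (48.0%) were inside domains in KO cells, against 28.5% of all genes, while 0 were inside in WT cells, against 5.89% of all genes. With N18 after 12 cycles, 18 (36.0%) were inside in KO cells, against 23.1% of all genes, and 26 (52.0%) in WT cells, against 27.4%. With 3A6 after 30 cycles, 3 (Rpl38, Rplp0 and Rps21) were inside in KO cells, against 12.6% of all genes, and 0 in WT cells, against 9.40%. With 3A6 after 12 cycles, 1 (Rps21) was inside in KO cells, against 10.7% of all genes, and 14 (28.0%) in WT cells, against 21.1%. Weighting by chromosome changed the all-gene share by at most a few percentage points, the widest step for lamin A/C being to 33.4% for N18 in KO cells after 30 cycles.

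Lamin B1 domains held almost none of the genes. After 30 cycles only Rpl7 was inside, against 16.8% of all genes, and after 12 cycles 0 were inside, against 7.78% of all genes. The ribosomal protein genes also lay far from lamin B1 domains: the median distance to the nearest 30-cycle domain was 2216 kb, against 1162 kb for all genes. Only 1 of the 50 (2.00%) lay within 100 kb of such a domain, against 20.9% of all genes, and this was Rpl7 itself. The next nearest was Rpl15, at 103.3 kb, and the farthest was Rpl38, at 20820 kb.

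**Figure D1:**
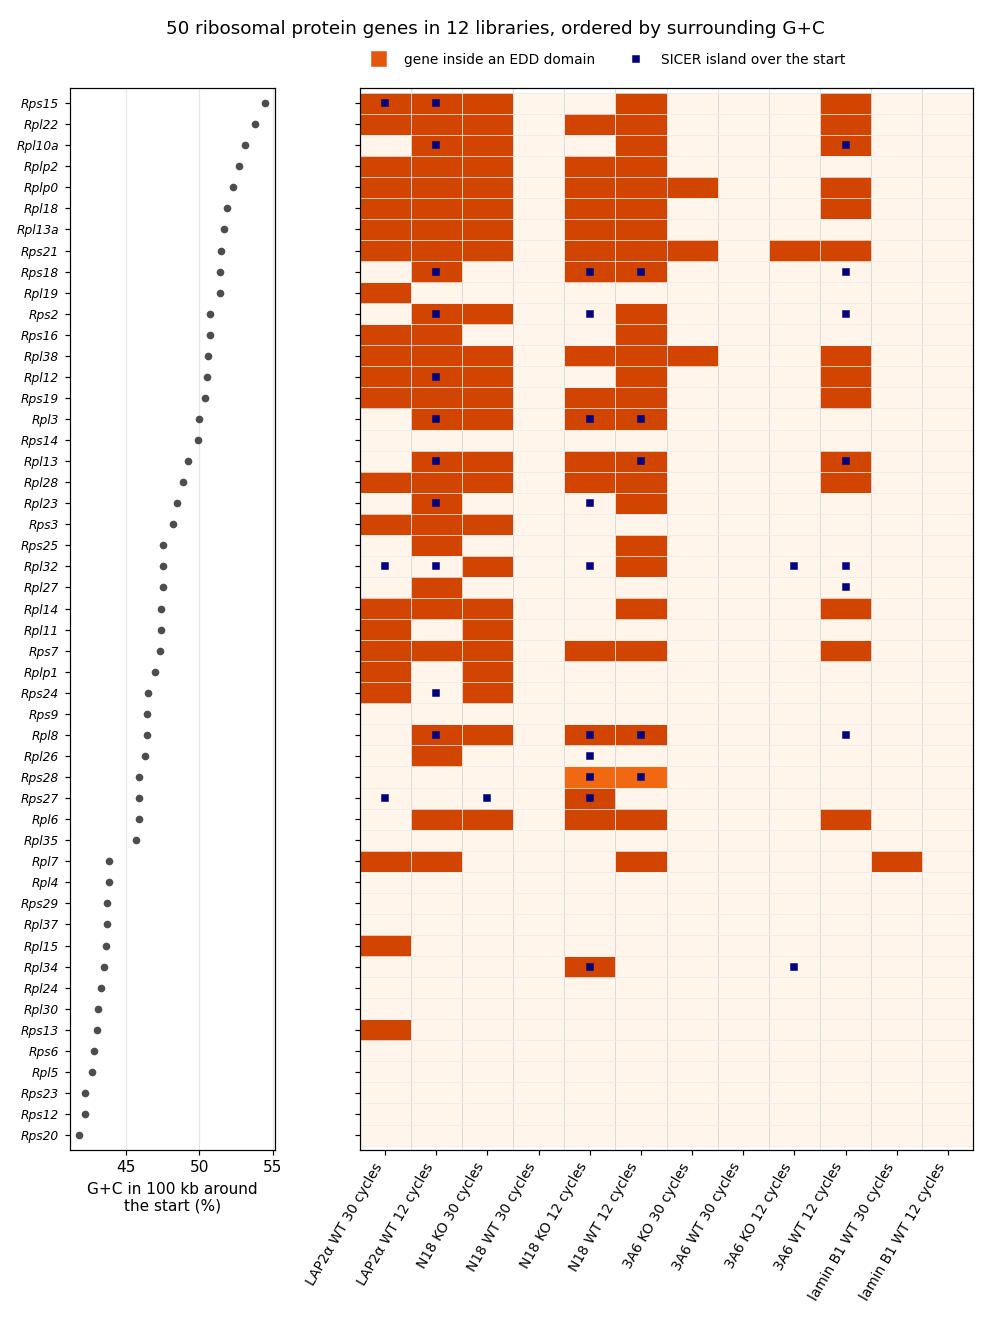
Each row is a ribosomal protein gene and each column of the right panel a library. Filled cells mark genes inside an EDD domain (the paler cells of Rps28 are 81.4% covered), blue squares mark a SICER island over the start, and the left panel gives the G+C content (%) of the 100 kb around the start, by which the rows are ordered. Filled cells crowd into the upper rows, and the columns of N18 and 3A6 in WT cells after 30 cycles and of lamin B1 after 12 cycles are empty.

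**Figure D2:**
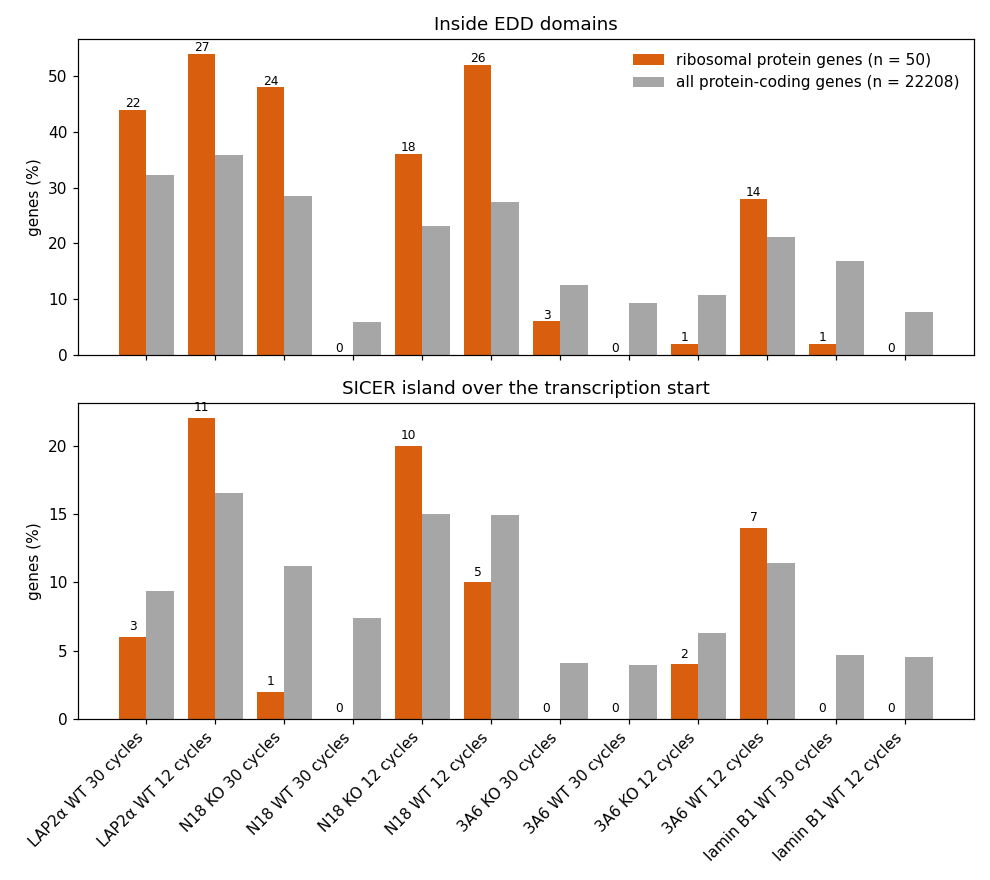
Bars give the percentage of the 50 ribosomal protein genes (orange, with their number above) and of all 22208 protein-coding genes (grey) inside EDD domains (upper panel) or with a SICER island over the start (lower panel) in each library. The orange bar exceeds the grey one for domains in 6 libraries (both LAP2alpha, N18 in KO after both sonications, N18 and 3A6 in WT after 12 cycles) and lies under it in the other 6.

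Next, the fate of each gene in KO against WT cells was followed with the same antibody and sonication. After 30 cycles with N18, 24 genes were inside domains in KO cells alone (24.4% of all genes), 0 in both genotypes (4.13%) and 0 in WT cells alone (1.76%). The 24 were Rpl3, Rpl6, Rpl8, Rpl10a, Rpl11, Rpl12, Rpl13, Rpl13a, Rpl14, Rpl18, Rpl22, Rpl28, Rpl32, Rpl38, Rplp0, Rplp1, Rplp2, Rps2, Rps3, Rps7, Rps15, Rps19, Rps21 and Rps24. With 3A6 after 30 cycles, Rpl38, Rplp0 and Rps21 were inside in KO cells alone (8.94% of all genes), 0 genes in both (3.65%) and 0 in WT cells alone (5.75%). These 3 genes (6% of the 50; 4.24% of all genes) were inside in KO cells alone with both antibodies, which share their inputs.

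After 12 cycles the balance ran the other way. With N18, Rpl34 and Rps27 were inside in KO cells alone (7.64% of all genes), 16 genes in both genotypes (15.5%) and 10 in WT cells alone (11.9%). The 10 were Rpl7, Rpl10a, Rpl12, Rpl14, Rpl23, Rpl32, Rps2, Rps15, Rps16 and Rps25. With 3A6, 0 genes were inside in KO cells alone (5.00% of all genes), Rps21 in both (5.70%) and 13 in WT cells alone (15.4%). The 13 were Rpl6, Rpl10a, Rpl12, Rpl13, Rpl14, Rpl18, Rpl22, Rpl28, Rpl38, Rplp0, Rps7, Rps15 and Rps19. Rpl10a, Rpl12, Rpl14 and Rps15 (8% of the 50; 5.67% of all genes) were inside in WT cells alone with both antibodies, again against shared inputs. Rpl12 lies at the base of the stalk that receives elongation factors, and Rps15 at the decoding site of the small subunit.

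The sonications were then compared within a genotype. In WT cells, N18 domains held 0 genes after 30 cycles alone (2.71% of all genes), 0 at both sonications (3.18%) and 26 after 12 cycles alone (24.2%), and 3A6 domains held 0 (8.39%), 0 (1.01%) and 14 (20.1%) in the same order. In KO cells, N18 domains held 10 genes after 30 cycles alone (12.2%), 14 at both (16.3%) and 4 after 12 cycles alone (6.84%), the 4 being Rpl34, Rps18, Rps27 and Rps28. In KO cells, 3A6 domains held Rpl38 and Rplp0 after 30 cycles alone (7.35%), Rps21 at both (5.24%) and 0 after 12 cycles alone (5.47%). Lamin B1 domains held Rpl7 after 30 cycles alone (9.58%), 0 at both (7.18%) and 0 after 12 cycles alone (0.599%). The 24 genes in N18 domains of KO cells after 30 cycles and the 26 in N18 domains of WT cells after 12 cycles, which come from different inputs, had 20 genes in common. These were 83.3% of the KO list and 76.9% of the WT list. For all genes the corresponding shares were 70.8% and 73.6%. Of the 10 genes lost in KO with N18 after 12 cycles, 6 were inside N18 domains in KO after 30 cycles, and 4 (Rpl7, Rpl23, Rps16 and Rps25) were not. Of all genes lost in this way, 57.5% were inside, so the ribosomal protein genes were near the all-gene share.

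**Figure D3:**
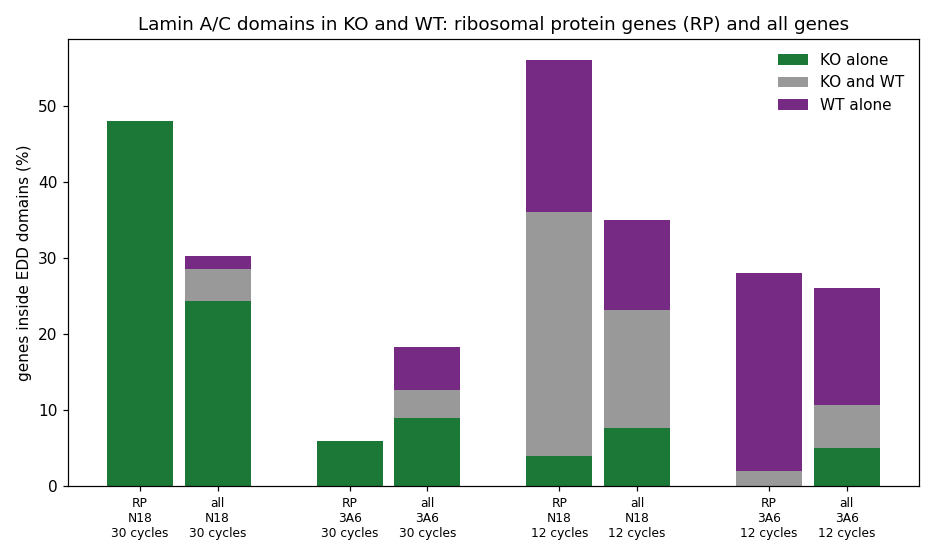
Stacked bars give the percentage of ribosomal protein genes (RP, n = 50) and of all protein-coding genes inside lamin A/C domains in KO cells alone (green), in KO and WT cells (grey) and in WT cells alone (purple), for N18 and 3A6 after 30 and 12 cycles. The RP bar for N18 is wholly green after 30 cycles, at 48.0%, and for 3A6 almost wholly purple after 12 cycles, with 13 genes in WT cells alone.

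By gene, Rps21 was inside domains of most libraries, 8 of the 12. Rps21, a small-subunit protein needed for maturation of the small-subunit RNA in yeast, was covered to 100% in both LAP2alpha libraries, in N18 libraries of KO cells after 30 and 12 cycles and of WT cells after 12 cycles, and in 3A6 libraries of KO cells after 30 and 12 cycles and of WT cells after 12 cycles. Its coverage was 0% in the N18 and 3A6 libraries of WT cells after 30 cycles and in both lamin B1 libraries. The gene (chr2:179992082-179993150) lay in domains between 2.72 and 4.09 Mb long near the distal end of chromosome 2, and the nearest lamin B1 domain after 30 cycles was 472.1 kb away.

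Rpl38 and Rplp0 were each inside domains of 7 libraries, those that held Rps21 without 3A6 in KO cells after 12 cycles. Rpl38, known in mice for its part in translation of Hox messages (chr11:114529838-114533645), was held with 3A6 in KO cells after 30 cycles by a domain of 0.957 Mb with 4 protein-coding genes, and after 12 cycles of the same cells its middle lay 10.7 kb outside one. Rplp0, the core of the stalk on the large subunit (chr5:116009476-116013736), lay in the highest-scoring domain of the N18 library of KO cells after 30 cycles, which was 32.5 Mb long. It lay in the highest-scoring domain also in the 12-cycle WT libraries of LAP2alpha (40.8 Mb), N18 (32.7 Mb) and 3A6 (31.6 Mb). Rpl6 lay in each of these same domains, so the values of Rplp0 and Rpl6 are not separate measurements there.

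Rpl18, Rpl22, Rpl28, Rps7 and Rps19 were inside domains of 6 libraries each, and these were the same 6: LAP2alpha after 30 and 12 cycles, N18 in KO cells after 30 and 12 cycles, and N18 and 3A6 in WT cells after 12 cycles. In each of these their coverage was 100%, and in the other 6 it was 0%. Rps19 is the gene most often mutated in human Diamond-Blackfan anemia, Rps7 binds Mdm2, Rpl22 is dispensable in most mouse tissues but required by alpha-beta T cells, and Rpl18 and Rpl28 are large-subunit proteins. Rps7 had only 7 other protein-coding genes within 500 kb, whereas Rpl18 had 51 and Rpl28 had 45.

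Among genes of 5 libraries, Rpl12, Rpl14 and Rps15 were held by both LAP2alpha libraries, N18 in KO cells after 30 cycles, and N18 and 3A6 in WT cells after 12 cycles. Rpl6 and Rpl13 were held by LAP2alpha after 12 cycles, N18 in KO cells after both sonications, and N18 and 3A6 in WT cells after 12 cycles. Rpl13a, which also takes part in interferon-induced translational silencing in human cells, and Rplp2, a stalk protein, were held by both LAP2alpha libraries and by N18 in KO cells after both sonications and in WT cells after 12 cycles. Genes of 4 libraries were Rpl3 and Rpl8, which lie close to the peptidyl transferase center, Rpl10a and Rpl7. Rpl10a was covered to 100% by LAP2alpha, N18 and 3A6 domains of WT cells after 12 cycles and by N18 domains of KO cells after 30 cycles. Its coverage was 0% in every other library. Genes of 3 libraries were Rps2 and Rps3, at the entry of the mRNA channel, Rps16 and Rps18. Genes of 2 libraries were Rpl11, which with Rpl5 binds Mdm2, Rpl23, Rpl32, Rplp1, Rps24, Rps25, which several viral internal ribosome entry sites require, and Rps28. Genes of 1 library were Rpl15, Rpl19 and Rps13 (LAP2alpha after 30 cycles), Rpl26 and Rpl27 (LAP2alpha after 12 cycles), and Rpl34 and Rps27 (N18 in KO cells after 12 cycles).

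Rpl7, a large-subunit protein, was the only ribosomal protein gene inside a lamin B1 domain. Its coverage (chr1:16091376-16094743) was 100% in lamin B1 after 30 cycles and 0% after 12 cycles, when the nearest lamin B1 domain lay 372.4 kb away. The 30-cycle lamin B1 domain spanned chr1:2992001-33517000, was 30.5 Mb long and held 109 protein-coding genes. Rpl7 was also covered to 100% by LAP2alpha domains after 30 cycles (23.2 Mb) and 12 cycles (0.495 Mb), and by an N18 domain in WT cells after 12 cycles (0.44 Mb). It was covered to 0% in N18 libraries of KO cells after both sonications and of WT cells after 30 cycles, and in all 4 3A6 libraries. Its surroundings had 43.8% G+C and 5 other genes within 500 kb.

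In 13 genes (26.0%; 21.0% of all genes) no library had a domain over the gene or an island over the start. These were Rpl4, Rpl5, Rpl24, Rpl30, Rpl35, Rpl37, Rps6, Rps9, Rps12, Rps14, Rps20, Rps23 and Rps29. Among them are Rps6, which is phosphorylated downstream of mTOR, Rpl5, which with Rpl11 binds Mdm2, Rps14, whose loss marks a human myelodysplastic syndrome, Rpl35 at the exit of the peptide tunnel, and Rps9 and Rps23, which affect decoding accuracy in yeast. Measured from the middle of the gene, Rps29 lay 2.44 kb outside a 3A6 domain of KO cells after 12 cycles, Rpl37 7.88 kb outside a 3A6 domain of WT cells after 30 cycles, and Rps9 5.05 kb outside a LAP2alpha domain after 12 cycles. The surroundings of the 13 genes had a median G+C of 43.3% (41.8% to 49.9%) and a median of 10 other genes within 500 kb (2 to 28). The 8 genes of 6 or more libraries had a median G+C of 51.05% (47.3% to 53.8%) and a median of 23 other genes (7 to 51).

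In the libraries with most ribosomal protein genes, median G+C was higher inside domains than outside, among these genes and among all genes. These libraries were both of LAP2alpha, N18 in KO cells after both sonications, and N18 and 3A6 in WT cells after 12 cycles. In LAP2alpha after 12 cycles the median G+C was 50.4% for the 27 genes inside and 43.7% for the 23 outside, against 48.1% inside and 42.3% outside for all genes. In N18 libraries of KO cells after 30 cycles it was 50.2% for the genes inside and 43.8% for those outside, against 48.1% and 42.7% for all genes. With 3A6 in KO cells, all genes went the other way: 43.3% inside and 44.3% outside after 30 cycles, 43.9% and 44.3% after 12 cycles. The few ribosomal protein genes inside had medians of 51.5% there, against 47.3% and 47.4% outside. With lamin B1 after 30 cycles, Rpl7 inside had 43.8%, and all genes had 39.4% inside and 45.2% outside. To compare genes of like surroundings, all genes were divided into 3 equal bins at 42.2% and 46.4% G+C, a division chosen after the data were seen. The ribosomal protein genes fell unevenly, with 3 in the lowest, 18 in the middle and 29 in the highest bin.

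Within the highest bin, LAP2alpha domains after 30 cycles held 19 of 29 (65.5%), against 47.6% of all genes of that bin, and after 12 cycles 23 of 29 (79.3%), against 74.1%. N18 domains held 22 of 29 (75.9%) in KO cells after 30 cycles, against 59.2%. After 12 cycles N18 domains held 13 of 29 (44.8%) in KO cells, against 42.3%, and 22 of 29 (75.9%) in WT cells, against 60.1%, and 3A6 domains held 13 of 29 (44.8%) in WT cells, against 41.5%. Within the middle bin the shares of the 18 genes lay on either side of those of all genes: 16.7% against 32.5% and 22.2% against 29.4% for LAP2alpha after 30 and 12 cycles, 11.1% against 22.2% for N18 in KO cells after 30 cycles, 27.8% against 21.4% and 22.2% against 19.9% for N18 in KO and WT cells after 12 cycles, and 5.56% against 18.1% for 3A6 in WT cells after 12 cycles. Within the highest bin the excess over all genes was thus 17.9 and 5.25 percentage points for LAP2alpha after 30 and 12 cycles, 16.7 for N18 in KO cells after 30 cycles, 2.57 and 15.8 for N18 in KO and WT cells after 12 cycles, and 3.37 for 3A6 in WT cells after 12 cycles. Lamin B1 domains after 30 cycles held 0 of 29 ribosomal protein genes of the highest bin, against 0.946% of all genes there, and 1 of 18 of the middle bin, against 6.78%. N18 domains of WT cells after 30 cycles held 0 of 29 of the highest bin, against 5.35% of all genes there, a difference of fewer than 2 genes.

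**Figure D4:**
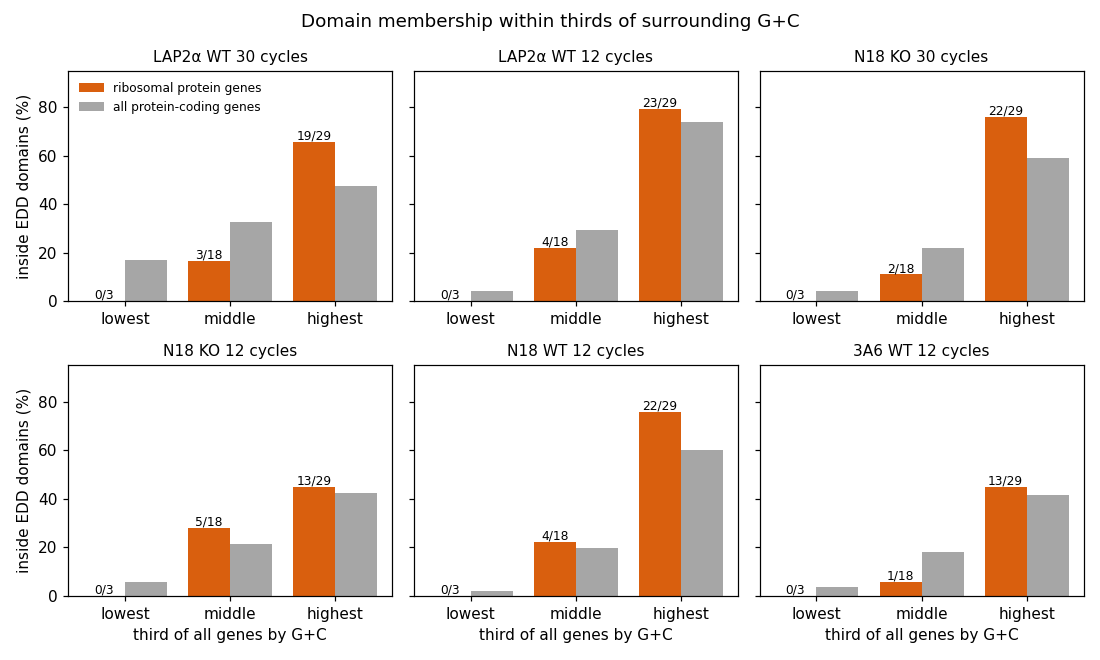
Bars give the percentage inside EDD domains for ribosomal protein genes (orange, with the number inside and the number in the bin) and all protein-coding genes (grey), in 3 equal bins of all genes by G+C content in the 100 kb around the start, for the 6 libraries with most ribosomal protein genes. Both colours climb toward the highest bin, where 29 of the 50 genes lie.

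The LAP2alpha domains that held at least 1 of the genes had a median length of 5.51 Mb (0.627 to 60.2 Mb) after 30 cycles and 5.25 Mb (0.385 to 40.8 Mb) after 12 cycles. Up to 2 ribosomal protein genes shared a domain. The 27 genes inside LAP2alpha domains after 12 cycles lay in 22 domains, the shared ones holding Rpl3 with Rpl8, Rpl6 with Rplp0, Rpl10a with Rps2, Rpl13a with Rpl18, and Rps16 with Rps19. The 24 genes of N18 in KO cells after 30 cycles lay in 20 domains. Genes of 1 domain were called together and are not independent of each other.

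SICER islands, called from 1000-bp windows and far shorter than EDD domains, gave a second view at the transcription start. An island covered the start of 3 genes for LAP2alpha after 30 cycles (9.34% of all genes) and of 11 after 12 cycles (16.5%). For N18 after 30 cycles the numbers were 1 in KO (11.2%) and 0 in WT cells (7.41%), and after 12 cycles 10 in KO (15.0%) and 5 in WT cells (14.9%). For 3A6 after 30 cycles they were 0 in KO (4.13%) and 0 in WT cells (3.94%), and after 12 cycles 2 in KO (6.31%) and 7 in WT cells (11.4%). Lamin B1 islands covered 0 starts after 30 cycles (4.69%) and 0 after 12 cycles (4.56%). In at least 1 library, 16 of the 50 genes (32.0%) had an island over the start, against 41.4% of all genes. The chromosome mattered here: islands were nearly missing from chromosomes 1, 7 and 12, where 0 of 12 ribosomal protein genes and 2.21% of all genes had one in any library. Elsewhere 16 of 38 (42.1%) had one, against 50.01% of all genes.

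Rpl32, a large-subunit protein, had an island over the start in 5 libraries, more than any other ribosomal protein gene. The island was 46 kb long for LAP2alpha after 30 cycles (2018 reads) and 52 kb after 12 cycles (1152 reads), 63 kb for N18 in KO cells after 12 cycles (1292 reads), and for 3A6 after 12 cycles 39 kb in KO (806 reads) and 55 kb in WT cells (1174 reads). Read density at Rpl32 was near the median of each library's islands: 43.9 reads per kb against 36.8 for LAP2alpha after 30 cycles, and 22.2 against 20.3 after 12 cycles. Rpl32 lay inside EDD domains in 2 other libraries, N18 in KO cells after 30 cycles and N18 in WT cells after 12 cycles, so its islands and its domains came from different libraries.

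Rpl8 and Rps18 had islands over the start in the same 4 libraries, all after 12 cycles: LAP2alpha, N18 in KO cells, N18 in WT cells and 3A6 in WT cells. At Rpl8 the island was 184 kb with N18 in KO cells (4802 reads) and 395 kb in WT cells (9422 reads), 321 kb with LAP2alpha and 58 kb with 3A6. At Rps18 it was 11 kb with N18 in KO cells (246 reads) and 54 kb in WT cells (1224 reads), 50 kb with LAP2alpha and 82 kb with 3A6. The N18 islands over Rpl8 and Rps18 were thus shorter in KO than in WT cells, whereas that over Rps28 was 110 kb in KO cells (2215 reads) and 21 kb in WT cells (504 reads).

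Rpl3, Rpl13, Rps2 and Rps27 had islands in 3 libraries each. Rpl3 was covered by an N18 island of 261 kb in KO and 524 kb in WT cells after 12 cycles and by one of 261 kb for LAP2alpha. Rpl13 was covered by islands of 393 kb for LAP2alpha, 405 kb for N18 in WT cells and 94 kb for 3A6 in WT cells, all after 12 cycles, and by none in KO cells. Rps2 was covered for LAP2alpha (11 kb), N18 in KO cells (58 kb) and 3A6 in WT cells (60 kb) after 12 cycles. Rps27, a zinc-finger protein of the small subunit, was covered for LAP2alpha after 30 cycles (102 kb) and for N18 in KO cells after 30 cycles (184 kb) and 12 cycles (389 kb), and in no library of lamin A/C in WT cells. Rpl10a, Rpl23, Rpl34, Rps15 and Rps28 had an island in 2 libraries, and Rpl12, Rpl26, Rpl27 and Rps24 in 1. At Rpl10a the islands were 68 kb for LAP2alpha and 143 kb for 3A6 in WT cells, both after 12 cycles. At Rps15 they were 31 and 26 kb for LAP2alpha after 30 and 12 cycles, and at Rpl12 14 kb for LAP2alpha after 12 cycles. Of the 39 islands over a start, 35 were in 12-cycle and 4 in 30-cycle libraries. The all-gene shares above were also higher after 12 than after 30 cycles with LAP2alpha, N18 and 3A6, though not with lamin B1. With islands within 5 kb of the start, the counts after 30 and 12 cycles were 9 and 15 for LAP2alpha. They were 8 and 11 for N18 in KO and 5 and 10 in WT cells, and 1 and 3 for 3A6 in KO and 3 and 9 in WT cells. The density of the islands over a start, 17.8 to 27.7 reads per kb after 12 cycles, lay around library medians of 20.3 to 20.6.

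In the KO against WT comparisons, islands and domains did not always name the same genes. After 12 cycles with N18, islands covered 6 starts in KO cells alone (Rpl23, Rpl26, Rpl32, Rpl34, Rps2 and Rps27; 7.86% of all genes), 4 in both (Rpl3, Rpl8, Rps18 and Rps28; 7.15%) and 1 in WT cells alone (Rpl13; 7.77%). Rpl23, Rpl32 and Rps2 thus had an N18 island in KO cells alone and lay in an N18 domain in WT cells alone. Rpl34 and Rps27 were in KO cells alone by both measures. With 3A6 after 12 cycles, islands covered Rpl34 in KO cells alone (3.55%), Rpl32 in both (2.76%) and 6 starts in WT cells alone (8.69%). After 30 cycles with N18, Rps27 was covered in KO cells alone (7.93%), 0 starts in both (3.23%) and 0 in WT cells alone (4.18%). After 30 cycles with 3A6 the members of all 3 classes numbered 0, against 3.31% of all genes in KO cells alone, 0.820% in both and 3.12% in WT cells alone.

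Across sonications, LAP2alpha islands covered Rps27 after 30 cycles alone (6.14% of all genes), Rpl32 and Rps15 at both (3.21%) and 9 starts after 12 cycles alone (13.3%). N18 islands in KO cells covered 0 after 30 cycles alone (4.69%), Rps27 at both (6.48%) and 9 after 12 cycles alone (8.53%). N18 islands in WT cells covered 0 after 30 cycles alone (3.85%), 0 at both (3.56%) and 5 after 12 cycles alone (11.4%). For 3A6 the numbers after 30 cycles alone, at both and after 12 cycles alone were 0 (2.47%), 0 (1.66%) and 2 (4.65%) in KO cells, and 0 (2.82%), 0 (1.12%) and 7 (10.3%) in WT cells. For lamin B1 they were 0 in each class, against 2.35%, 2.35% and 2.22% of all genes.

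Rpl41, which encodes the shortest protein of the ribosome, was placed by its RefSeq start at position 127986224 of chromosome 10, minus strand. The start lay inside a LAP2alpha domain after 12 cycles and under a LAP2alpha island of the same library. It lay in no domain and under no island in the other 11 libraries.

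Other genes of the ribosome and of translation gave a setting for these values. For all of these lists, the all-gene shares for N18 were 28.5% in KO and 5.89% in WT cells after 30 cycles. They were 23.1% in KO and 27.4% in WT cells after 12 cycles. After 30 and 12 cycles, the all-gene shares were 32.3% and 35.9% for LAP2alpha, and 16.8% and 7.78% for lamin B1. The 34 other cytosolic ribosomal protein genes had 10 inside N18 domains in KO cells after 30 cycles (29.4%) and 0 in WT cells, 12 in KO cells (35.3%) and 13 in WT cells (38.2%) after 12 cycles. They had 10 inside LAP2alpha domains after 30 cycles (29.4%) and 16 after 12 cycles (47.1%). For N18 in KO cells and LAP2alpha after 30 cycles, these 34 genes lay near the all-gene share. The 50 genes described here lay above it, with 48.0% and 44.0%. In lamin B1 domains after 30 cycles lay Rpl10, Rpl10l and Rps4x, of which Rpl10 and Rps4x are on chromosome X, and after 12 cycles 0. The 76 mitochondrial ribosomal protein genes serve a separate ribosome. They had 30 inside LAP2alpha domains after 30 cycles (39.5%) and 42 after 12 cycles (55.3%, near the 54.0% of the 50 genes). With N18 they had 23 in KO (30.3%) and 4 in WT cells (5.26%) after 30 cycles, and 16 in KO (21.1%) and 31 in WT cells (40.8%) after 12 cycles. Lamin B1 domains held 6 of them after 30 cycles, and Mrpl15, Mrpl19 and Mrpl36 after 12 cycles.

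The 64 genes with symbols of translation initiation and elongation factors, which also take in the Eif2ak kinases and Argonaute gene Eif2c2, had 24 inside N18 domains in KO (37.5%) and 3 in WT cells (Eef1a2, Eif1b and Eif2ak3) after 30 cycles, and 20 in KO and 20 in WT cells (31.2% each) after 12 cycles. The 14 RNA polymerase I genes had 6 in KO and 0 in WT cells after 30 cycles, and 5 in KO and 4 in WT cells after 12 cycles, and 0 lay in a lamin B1 domain at either sonication. The 39 ribosome assembly genes had 10 in KO (25.6%) and 0 in WT cells after 30 cycles, and 9 in KO (23.1%) and 15 in WT cells (38.5%) after 12 cycles. In lamin B1 domains lay Rrs1 and Dkc1 after 30 cycles and Rrs1 after 12 cycles. In all 5 of these lists N18 domains after 30 cycles held more genes in KO than in WT cells, as they did for all protein-coding genes (28.5% in KO and 5.89% in WT cells).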

How the data were processed

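Region lists of 12 ChIP libraries were analysed. Adapters were clipped by the authors (cutadapt), mm9 was the genome for alignment (Bowtie2 2.1.0), and the authors discarded mapping qualities under 20 and duplicates and down-sampled each library to its input with Picard. Reads that fit several places equally well are lost by such a filter, and ribosomal protein genes have many processed pseudogenes, and how this affects reads over their exons was not tested. The authors called EDD domains (11-kb bins, gap penalty 5, FDR 0.1), deposited with a score, and SICER 1.1 islands (1000-bp windows, 3000-bp gaps, FDR 0.01), deposited with a read count, separately in each library against the matched input. Island ends were taken as inclusive. The number of reads in islands ran between 3989494 and 13601739, and intervals for counting error were not applied to calls.

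Genes came from GENCODE M1, the longest protein-coding record of each of 22208 symbols. A gene was inside when domains covered 50% or more of it, and an island was counted when it held the start base. Python 3.11.15, numpy 2.4.6 and pandas 2.3.3 were used, and the coverage code was tested on simulated regions. Genes were described in full by a rule: those in a lamin B1 domain, the 5 in domains of most libraries and the 5 with islands in most libraries (ties included), those lost or gained in KO with both lamin A/C antibodies, and those with 30% to 70% coverage. The genes and lists were chosen with earlier results of these data known. Sequences are those of RefSeq. Alternatives were a start inside a domain, complete coverage, higher-scoring domains, wider or stricter islands, the shortest record, autosomes alone and domain borders moved by 11 kb. No tests were made.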

Additional observations from a re-analysis of the deposited data

Results flagged for a closer look

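With both lamin A/C antibodies, the difference between KO and WT cells in the number of ribosomal protein genes inside EDD domains had opposite signs at the 2 sonications. With N18 it was 24 genes (24 in KO and 0 in WT cells) after 30 cycles and -8 genes (18 in KO and 26 in WT cells) after 12 cycles. With 3A6 it was 3 genes (3 in KO and 0 in WT cells) after 30 cycles and -13 genes (1 in KO and 14 in WT cells) after 12 cycles. By islands over the start, N18 after 12 cycles had the opposite direction, with 10 genes in KO (15.0% of all genes) and 5 in WT cells (14.9%). With islands within 5 kb of the start, these N18 counts were 11 in KO and 10 in WT cells, so the size of the gap depended on the setting. Counted by coverage of the gene by islands, without regard to the start, they were 11 in KO and 5 in WT cells. With islands above the median read count they were 7 in KO and 5 in WT cells. The count was higher in KO cells with each of these settings. By islands over the start, 3A6 after 12 cycles had 2 in KO (6.31% of all genes) and 7 in WT cells (11.4%). By domains, all protein-coding genes moved the same way, by 22.6 percentage points after 30 cycles and -4.3 after 12 cycles with N18, and by 3.19 and -10.4 with 3A6. For the ribosomal protein genes the corresponding steps were 48.0 and -16.0 percentage points with N18, and 6.0 and -26.0 with 3A6. The difference was not tested, since each combination is 1 library. Domains in KO and WT cells spanned 472.0 and 238.6 Mb with N18 after 30 cycles, and 421.7 and 403.8 Mb after 12 cycles. With 3A6 they spanned 499.6 and 582.0 Mb, and 383.9 and 398.6 Mb. Reads in islands in KO and WT cells were 13601739 and 9600190 with N18 after 30 cycles, and 5520180 and 5091621 after 12 cycles. With 3A6 they were 7927688 and 8187172, and 3989494 and 4884992. Their part in the difference was not tested. The antibodies share inputs within a genotype and sonication, and sonication cannot be told apart from flow cell.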

How the results depend on the processing

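Of 342 alternative values, 304 stayed within 1.5 times the reported count and 38 did not. Some of the 342 had little or no room to differ. A library's count of 0 cannot rise under a stricter setting, and 598 of the 600 coverage values were exactly 100% or 0%. The 304 are therefore no measure of how stable the counts are. Another 66, from autosomes alone and from leaving out chromosomes 1, 7 and 12, could not differ, since no gene lies on chromosome X and none on chromosomes 1, 7 or 12 had an island. Counts inside domains stayed within 1.5 times with all of these: the start in place of the gene, complete coverage, the shortest record, and domains shortened by 11 kb at each end. Small changes occurred within that limit. With complete coverage, N18 after 12 cycles held 17 genes in KO cells (18 reported) and 25 in WT cells (26 reported). Among counts of islands, starts taken from RefSeq, islands above the median read count and coverage of 50% of the gene by islands moved none beyond 1.5 times. Islands above the median read count gave 8 genes for LAP2alpha after 12 cycles (11 reported). For N18 in KO cells after 12 cycles they gave 7 (10 reported). With islands within 5 kb of the start, the numbers after 30 cycles became 9 for LAP2alpha, and for N18 8 in KO and 5 in WT cells. For 3A6 after 30 cycles they became 1 in KO and 3 in WT cells. For N18 after 12 cycles the number became 10 in WT cells, beside 11 in KO cells. Domains extended by 11 kb at each end, an alternative chosen after the data were seen, held 2 genes for N18 in WT cells after 30 cycles (Rpl14 and Rpl38), 3 for 3A6 in KO cells after 12 cycles and 1 for 3A6 in WT cells after 30 cycles. In the comparisons this setting gave 2 genes in N18 domains of both KO and WT cells after 30 cycles and 2 in WT cells at both sonications. With 3A6 it gave 1 in KO cells alone and 2 in both genotypes after 12 cycles, 1 in WT cells alone after 30 cycles, 1, 2 and 1 in KO cells after 30 cycles alone, at both and after 12 cycles alone, and 1 in WT cells after 30 cycles alone. With domains above the median score, N18 in KO cells held 6 after 30 cycles alone and 2 after 12 cycles alone.

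With islands over the start in place of domains, N18 after 12 cycles gave 6 genes in KO cells alone, 4 in both and 1 in WT cells alone, and 3A6 after 12 cycles gave 1 in KO cells alone and 6 in WT cells alone. After 30 cycles N18 gave 1 and 3A6 gave 0 in KO cells alone. Between sonications, LAP2alpha gave 1 after 30 cycles alone and 2 at both, N18 in KO cells 0 after 30 cycles alone, 1 at both and 9 after 12 cycles alone, N18 in WT cells 5 after 12 cycles alone, 3A6 in KO cells 0, 0 and 2, 3A6 in WT cells 7 after 12 cycles alone, and lamin B1 0 after 30 cycles alone. The cause of these shifts was not tested. No paired analysis was possible because each group has 1 library. For the same reason no replicate could be left out, and no count carries an error between replicates. Region lists give no signal outside regions, so weaker binding at genes without a region was not measured.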
